A study of Homo sapiens with 18 samples.

Results

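The genes described here were the human zinc finger genes with a symbol of ZNF followed by a number that were clearly expressed in MDA-MB-231 cells. The rule kept symbols made of ZNF, digits and at most 1 letter, other than ZNF385A, and selected on the mean level over the 18 libraries, which had to reach 15 CPM (counts per 1000000 counts of the library). It kept 200 genes of the 554 symbols of this form and of the 60642 symbols counted, and all 200 passed the filter on low counts of the tests below. At the edge of the rule, ZNF286A (15.2 CPM) and ZNF839 (15.3 CPM) were kept and ZNF551 (14.9 CPM) and ZNF823 (just under 15 CPM) were not. ZNF385A had a mean of 11.5 CPM and would have stayed below the limit without the exception.

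MDA-MB-231 is an established mesenchymal-like TNBC cell line that expresses GR, the receptor activated by the synthetic GC Dex. Cells were transfected with a non-specific siRNA pool (siNS), with a pool against CBX3, the gene that encodes HP1γ (siHP1γ), or with a pool against PRMT5 (siPRMT5). Each was treated for 8 h with 100 nM Dex or with Eth, its vehicle, and sequenced as 3 biological replicates, which gave 6 groups and 18 libraries of bulk RNA. All groups were thus transfected cells of 1 line, and each depletion was compared with siNS under the same treatment.

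Zinc finger proteins of the C2H2 type bind DNA, or in some cases RNA or protein, through short loops held by a zinc ion, and many carry long arrays of them. In primates the largest subset starts with a KRAB box, a short domain that recruits the corepressor TRIM28, which in turn brings SETDB1, methylation of histone H3 on lysine 9 and HP1 proteins to the bound site. Many of these proteins silence transposable elements, and their own genes lie in clusters, most of them on chromosome 19, in chromatin that itself carries this mark and HP1.

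A KRAB box, defined as at most 2 mismatches to a pattern with 10 fixed letters, was found in the protein of 101 of the 200 genes and was not found in 96. The other 3 (ZNF252P, ZNF271P and ZNF826P) have no coding transcript. Of the 96, 5 had 3 or 4 mismatches, so a more divergent box, or a box absent from the transcript read, counts here as no KRAB box. The proteins with a KRAB box had a median of 13 fingers (3 to 31) and those without had a median of 7 (0 to 36). Of the 77 genes on chromosome 19, 60 encode a KRAB box and 16 do not.

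Library totals were 8682992 to 12472381 counts, of which the 200 genes took 0.847% to 1.03%, and none of the 200 had fewer than 61 counts in any library. VIM (5610 to 9529 CPM), CD44 (507 to 844 CPM) and NR3C1, which encodes GR (120 to 185 CPM), were present in every library, whereas ESR1, PGR and CDH1 had a median of 0. ERBB2, which encodes HER2 and was also listed as low or absent, had 24.15 to 35.13 CPM, above the limit of 15 CPM used here. CBX3 fell from 220 to 274 CPM in the siNS libraries to 9.23 to 15.8 CPM in the siHP1γ libraries, and PRMT5 fell from 226 to 262 CPM to 6.10 to 11.5 CPM in the siPRMT5 libraries. PRMT5 was also lower in siHP1γ cells, by −0.35 on the log2 scale with Dex (edgeR adjusted p = 0.0012) and by −0.25 without (edgeR adjusted p = 0.011). The part of this fall in the siHP1γ results was not tested. In bulk RNA, fewer cells with a transcript and less transcript per cell cannot be told apart. CBX3 did not pass the test after siPRMT5 (0.16 with Dex and −0.19 without).

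The sequence before the start site was read for genes that fell after siHP1γ and for genes that rose after siPRMT5, whose values follow. RefSeq promoter sequences (GRCh38.p14) were matched for 172 of the 200 genes, and the 250 bases before the start site were searched on both strands. The letters CCGGAAG, the core bound by ETS family factors, occurred in 32.0% of the 172 genes, in 16.2% of the 10035 tested genes with a promoter and in 8.82% of all 27305 promoters. Of the genes with a KRAB box that fell after siHP1γ both with and without Dex, 13 of 26 (50%) held these letters. Of the genes with a KRAB box that rose after siPRMT5 both with and without Dex, 6 of 22 (27.3%) held them, beside 34.8% of the 89 matched genes with a KRAB box. CCAAT occurred in 49.4% of the genes with a KRAB box, in 28.9% of those without, in 35.2% of tested genes and in 33% of all promoters. TATAAA occurred in 1.74% of the 172 genes, in 5.25% of tested genes and in 11.1% of all promoters. The median number of CpG was 16 in genes with a KRAB box, 21 in those without, 21 in tested genes and 11 in all promoters. The letters AGAACA, the core of the GR binding site, occurred in 8.14% of the 172 genes, in 7.08% of tested genes and in 12.4% of all promoters.

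To show the sequences behind these shares, the 250 bases before the start site are given for 2 genes that fell after siHP1γ and for 2 that rose after siPRMT5. They are written 5′ to 3′ on the strand of the gene, and capitals mark a match to CCGGAAG on either strand (CTTCCGG on the other strand). ZNF680 lies at chr7:64563072-64563321 (minus strand), ZNF184 at chr6:27473106-27473355 (minus strand), ZNF224 at chr19:44094111-44094360 (plus strand) and ZNF780A at chr19:40090944-40091193 (minus strand).
ZNF680: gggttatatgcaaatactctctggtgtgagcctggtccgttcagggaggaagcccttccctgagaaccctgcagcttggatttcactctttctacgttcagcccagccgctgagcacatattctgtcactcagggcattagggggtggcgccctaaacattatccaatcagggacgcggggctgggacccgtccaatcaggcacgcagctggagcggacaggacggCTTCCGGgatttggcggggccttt
ZNF184: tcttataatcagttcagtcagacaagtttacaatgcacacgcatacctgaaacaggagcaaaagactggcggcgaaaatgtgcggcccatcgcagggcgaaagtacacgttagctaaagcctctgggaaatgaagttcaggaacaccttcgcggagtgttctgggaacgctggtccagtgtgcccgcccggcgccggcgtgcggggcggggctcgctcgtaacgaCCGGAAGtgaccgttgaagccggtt
ZNF224: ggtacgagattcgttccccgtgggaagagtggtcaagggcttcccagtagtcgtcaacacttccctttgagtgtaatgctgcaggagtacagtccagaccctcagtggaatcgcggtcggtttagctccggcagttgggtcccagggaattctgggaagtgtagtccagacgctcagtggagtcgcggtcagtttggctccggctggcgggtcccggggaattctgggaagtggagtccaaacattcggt
ZNF780A: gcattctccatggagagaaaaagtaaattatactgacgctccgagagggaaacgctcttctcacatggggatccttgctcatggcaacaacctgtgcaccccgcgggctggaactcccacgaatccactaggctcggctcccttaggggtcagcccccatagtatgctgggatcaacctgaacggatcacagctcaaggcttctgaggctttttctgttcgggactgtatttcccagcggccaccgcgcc
ZNF680 and ZNF184 held 1 match each, as did ZNF268, whose sequence is not printed because a long stretch of its window is first exon of the gene in GENCODE 44, and ZNF224 and ZNF780A held none. ZNF510, which rose after siPRMT5 and is not printed, held none either. The printed sequences do not show a divide between the lists. By the shares above, some genes that fell held no match and some genes that rose held a match. A match is a run of letters, and binding was not measured.

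The first question was whether depletion of HP1γ moved these genes more than other genes of like level. After siHP1γ with Dex, 51 of the 200 genes were lower than in siNS cells and 17 were higher at an adjusted p under 0.05, whereas over all 15298 genes tested 24.0% were called, 12.3% lower and 11.7% higher. Without Dex, 53 were lower and 23 were higher, beside 31.8% of all genes tested, 15.2% lower and 16.5% higher. By separation of the libraries, 66 genes had all siHP1γ Dex values below all siNS Dex values and 24 had all above, against 18.4% and 18.4% of all genes tested, and without Dex 72 were below and 36 above, against 21.7% and 23.8%. The median log2 fold change of the 200 genes was −0.10 with Dex and −0.08 without, beside 0.00 and 0.01 over all genes tested. Among the 1980 other genes with 15 to 30 CPM the median was 0.02 with Dex and 0.03 without, and among the 8735 other genes with at least 15 CPM it was −0.02 and −0.01. Of these 8735, 16.8% were lower and 13.2% higher with Dex, and 20.8% lower and 19.8% higher without. The count of 17 higher genes was 9 to 11 when any 1 of siHP1γ Dex replicates 1 and 2 or siNS Dex replicates 2 and 3 was left out, and the count of 23 was 13 without siNS Eth replicate 1. With library sizes alone in place of TMM the medians were −0.01 with Dex and −0.02 without, and the median over all genes tested moved to 0.09 and 0.07.

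The genes with a KRAB box accounted for 30 of the 51 falls with Dex and for 34 of the 53 without. Of 101, 30 were lower and 5 were higher with Dex, and 34 were lower and 3 were higher without Dex, with medians of −0.15 and −0.13. Of the 96 genes without a KRAB box, 20 were lower and 12 were higher with Dex, and 17 were lower and 20 were higher without Dex, with medians of −0.03 and 0.03. As shares, 29.7% of the genes with a KRAB box were lower and 4.95% higher with Dex, and 33.7% lower and 2.97% higher without, against 12.3% and 11.7%, and 15.2% and 16.5%, of all genes tested. The shares of the genes without a KRAB box (20.8% lower and 12.5% higher with Dex, and 17.7% and 20.8% without) lay near those of the other genes at 15 CPM or more. The comparison without siHP1γ Dex replicate 3, the library with the lowest level of these genes in its group, called 18 genes with a KRAB box lower with Dex.

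Their summed level separated the groups. The 101 genes with a KRAB box summed to 3025, 3100 and 3236 CPM in the siNS Eth libraries and to 2703, 2714 and 2716 CPM in the siHP1γ Eth libraries. With Dex they summed to 2965, 3118 and 3131 CPM in siNS and to 2543, 2788 and 2879 CPM in siHP1γ. Every siHP1γ library was below every siNS library under both treatments. The 96 genes without a KRAB box overlapped, at 5857 to 6036 CPM in siNS Eth and 5842 to 5874 CPM in siHP1γ Eth, and at 5846 to 6144 CPM in siNS Dex and 5554 to 6022 CPM in siHP1γ Dex.

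**Figure D1:**
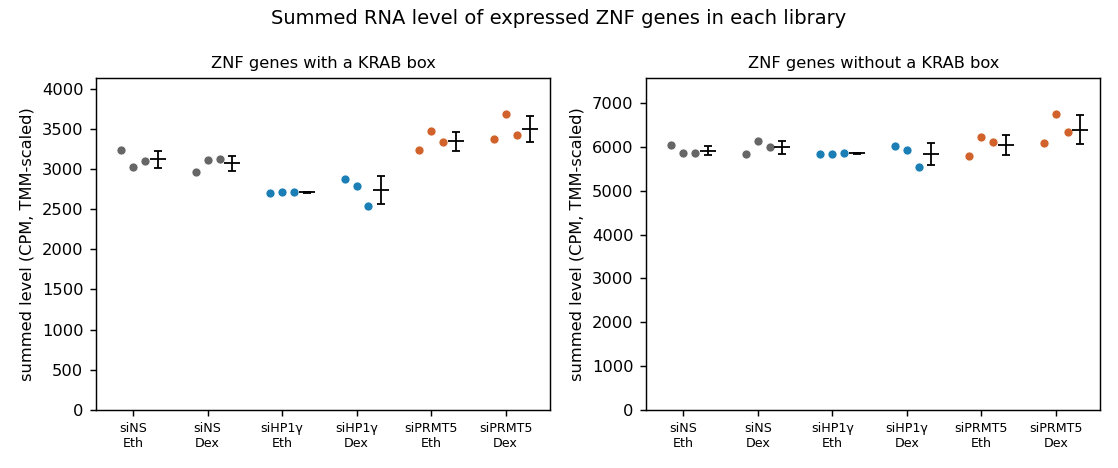
Summed level (CPM scaled by TMM, linear axis from 0) of the 101 ZNF genes with a KRAB box (left) and the 96 without (right) in each of the 18 libraries, where each dot is a library, and the bar beside each group is the mean ± SD (n = 3). On the left the siHP1γ libraries (2543 to 2879) lie below and the siPRMT5 libraries (3237 to 3688) above the siNS libraries (2965 to 3236), and on the right each depletion overlaps siNS under the same treatment.

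With and without Dex the comparisons share no library. The call was lower in both for 38 of the 200 genes (19%), against 7.97% of all genes tested and 11.4% of the other genes at 15 CPM or more, and higher in both for 4 (2%), against 7.05% and 8.17%. ZNF609 was called in opposite directions (−0.26 with Dex and 0.27 without). Of the 38, 27 encode a KRAB box, and no gene with a KRAB box was higher in both.

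ZNF680, a KRAB zinc finger gene on chromosome 7 with 12 fingers, had 20.9, 22.0 and 23.7 CPM in siNS Eth and 6.47, 7.21 and 7.48 CPM in siHP1γ Eth. With Dex it had 15.9, 18.1 and 19 CPM in siNS and 6.39, 7.92 and 10.6 CPM in siHP1γ. The groups did not overlap under either treatment. The log2 fold change was −1.65 ± 0.16 (SE) without Dex (edgeR adjusted p = 2.3e-08) and −1.07 ± 0.16 with Dex (edgeR adjusted p = 1.2e-05).

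ZNF268, with a KRAB box and 24 fingers, had 38.6, 44.8 and 47.5 CPM in siNS Eth against 17, 17.5 and 18.1 CPM in siHP1γ Eth. With Dex the values were 34.4, 37.9 and 43.6 CPM against 14, 17 and 20 CPM. No siHP1γ library reached a siNS library. The log2 fold change was −1.31 ± 0.13 without Dex and −1.17 ± 0.13 with Dex (edgeR adjusted p = 2.9e-08 and 2.2e-07). ZNF184, with a KRAB box and 19 fingers, changed by −0.99 and −0.90 in the same order.

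The other 5 of the 8 largest falls under both treatments had no KRAB box by the pattern or had no coding transcript. ZNF367, which has 2 fingers, had 88.1 to 108 CPM in siNS Eth and 37.3 to 39.6 CPM in siHP1γ Eth, and 82.8 to 91.1 CPM and 35.4 to 46.8 CPM with Dex. Its log2 fold changes were −1.37 ± 0.10 and −1.03 ± 0.10 (edgeR adjusted p = 2.5e-10 and 3.4e-08). ZNF721, with 23 fingers, and ZNF714, with 12, changed by −1.58 and −1.43 without Dex and by −1.20 and −1.06 with Dex. ZNF35 changed by −1.19 and −1.08, and ZNF252P, a transcript with no coding sequence, by −1.37 and −1.16.

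All 4 genes that rose under both treatments lack a KRAB box. ZNF827, which recruits the NuRD complex to telomeres in some cells, had 22.8 to 24.7 CPM in siNS Eth and 30.7 to 35.4 CPM in siHP1γ Eth, and 21.0 to 24.5 CPM and 33.8 to 35.1 CPM with Dex. The change was 0.51 ± 0.094 and 0.63 ± 0.092 (edgeR adjusted p = 0.00016 and 1.3e-05). ZNF318 changed by 0.48 and 0.26, ZNF32 by 0.31 and 0.43, and ZNF281, a factor tied to epithelial to mesenchymal transition, by 0.20 and 0.23. The call of ZNF281 was lost in 9 settings without Dex and in 5 with Dex, that of ZNF32 in 3 without Dex and that of ZNF318 in 2 with Dex, mostly when 1 library was left out.

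The second question was the same for PRMT5. After siPRMT5 with Dex, 71 of the 200 genes were higher and 27 were lower, beside 42.4% of all genes tested, 20.6% higher and 21.9% lower. Without Dex, 54 were higher and 29 were lower, beside 42.1%, 20.6% higher and 21.6% lower. The median log2 fold change was 0.15 with Dex and 0.10 without, beside 0.00 over all genes tested in each. The other genes with 15 to 30 CPM had medians of −0.02 and −0.01. Of the 8735 other genes at 15 CPM or more, 25.4% were higher and 26.4% lower with Dex, and 25.2% higher and 26.1% lower without. The share of the 200 genes that were higher was thus above this level with Dex (35.5%) and near it without (27%). By separation, 81 genes had all siPRMT5 Dex values above all siNS Dex values and 33 had all below, against 25% and 26.5% of all genes tested, and without Dex 67 were above and 41 below, against 24.0% and 25.1%. These comparisons share their siNS libraries with those of siHP1γ.

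Of the 101 genes with a KRAB box, 46 were higher and 11 were lower with Dex, and 27 were higher and 14 were lower without Dex, with medians of 0.23 and 0.11. Of the 96 without, 24 were higher and 16 were lower with Dex, and 26 were higher and 14 were lower without Dex, with medians of 0.08 and 0.07. As shares, 45.5% of the genes with a KRAB box were higher with Dex, against 20.6% of all genes tested and 25.4% of the other genes at 15 CPM or more, whereas the 26.7% that were higher without Dex lay near the 25.2% of those other genes. Of the genes without a KRAB box 25% and 27.1% were higher, near the same shares. Without siPRMT5 Dex replicate 2, the library with the highest level in its group, 30 genes with a KRAB box were called higher with Dex. The summed level of the genes with a KRAB box was 3237, 3337 and 3471 CPM in siPRMT5 Eth and 3379, 3431 and 3688 CPM in siPRMT5 Dex. Every siPRMT5 library was above every siNS library of the same treatment, although the closest pair without Dex nearly touched (3236 CPM in siNS and 3237 CPM in siPRMT5).

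**Figure D2:**
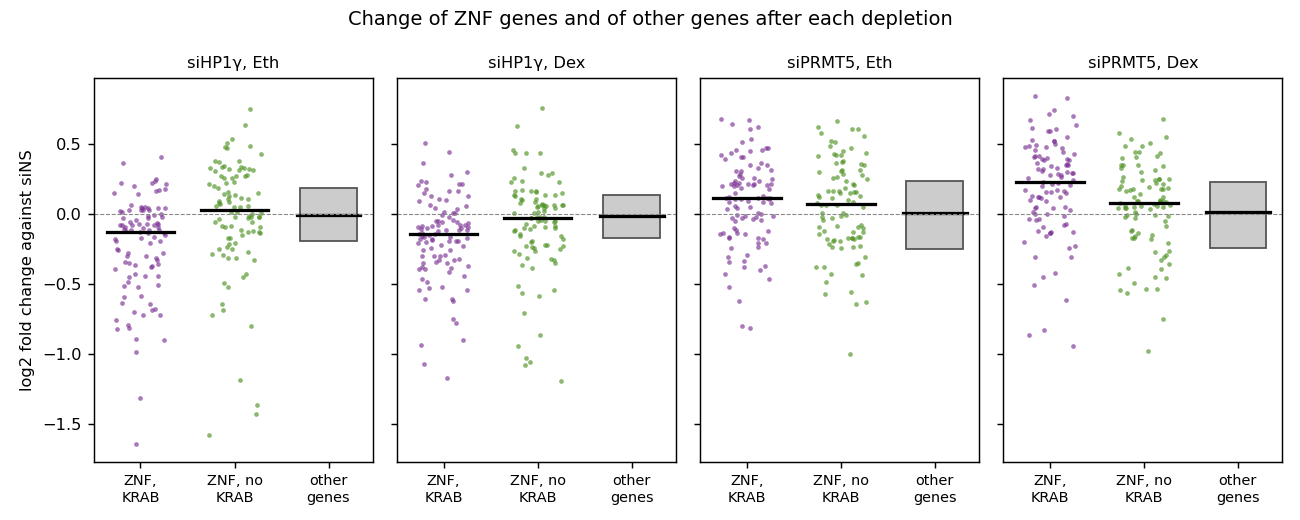
Log2 fold change against siNS under the same treatment (vertical axis) for the 101 ZNF genes with a KRAB box, the 96 without, and the 8735 other genes at 15 CPM or more, in 4 comparisons, where dots are genes, black lines are medians, and the grey box spans the middle 50% of the other genes. The medians of the genes with a KRAB box lie below 0 after siHP1γ (−0.13 and −0.15) and above 0 after siPRMT5 (0.11 and 0.23).

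The call was higher under both treatments for 37 of the 200 genes (18.5%), against 12.9% of all genes tested and 16.8% of the other genes at 15 CPM or more. It was lower under both for 18 (9%), against 15.2% and 19.2%. Of the 37, 25 encode a KRAB box. ZNF532 and ZNF618 were called in opposite directions with and without Dex and are described with the Dex response.

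ZNF224, a KRAB repressor known as a partner of WT1, had 26.5, 26.9 and 28.1 CPM in siNS Eth and 42.4, 42.8 and 45.0 CPM in siPRMT5 Eth. With Dex it had 23.9, 24.6 and 28.3 CPM in siNS and 44.2, 46.4 and 47.3 CPM in siPRMT5. The groups lay well apart under both treatments. The change was 0.67 ± 0.087 without Dex (edgeR adjusted p = 7e-07) and 0.85 ± 0.086 with Dex (edgeR adjusted p = 1.3e-08). It lies in a cluster on chromosome 19, described with the other stretches of that chromosome.

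ZNF780A and ZNF780B, neighbouring KRAB genes on chromosome 19 with similar sequences that may share reads, changed together. ZNF780A had 20.2 to 25.6 CPM in siNS Eth and 32 to 37.7 CPM in siPRMT5 Eth, and 19 to 21.6 CPM and 32.2 to 42.3 CPM with Dex. Its changes were 0.68 ± 0.13 and 0.83 ± 0.13 (edgeR adjusted p = 0.00016 and 1.2e-05), and those of ZNF780B were 0.46 (lost without siNS Eth replicate 2 or 3) and 0.70. Other genes with a KRAB box that rose were ZNF510 (0.64 without Dex and 0.67 with Dex), ZNF470 (0.62 and 0.63), ZNF45 (0.54 and 0.59) and ZNF75A (0.47 and 0.72). ZNF292, a tumour suppressor gene with no KRAB box, rose by 0.67 and 0.49.

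ZNF511 had the largest fall after siPRMT5 among the 200 genes. It had 34.8, 36.6 and 36.8 CPM in siNS Eth and 14.5, 17.5 and 22.2 CPM in siPRMT5 Eth, and 31.4, 31.9 and 32.9 CPM against 15.6, 15.7 and 17.6 CPM with Dex. The log2 fold change was −0.999 ± 0.11 without Dex and −0.98 ± 0.11 with Dex (edgeR adjusted p = 4.3e-08 and 6.3e-08). Its exons overlap those of TUBGCP2, from whose reads they cannot be told apart where the strand was not used. Other genes that fell were ZNF584 (−0.81 without Dex and −0.86 with Dex), ZNF114 (−0.80 and −0.83), ZNF875 (−0.62 and −0.94), ZNF134 (−0.64 and −0.75), ZNF544 (−0.47 and −0.61) and ZNF343 (−0.52 and −0.51). ZNF804A, a gene tied to schizophrenia risk, fell by 0.63 and 0.57.

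**Figure D3:**
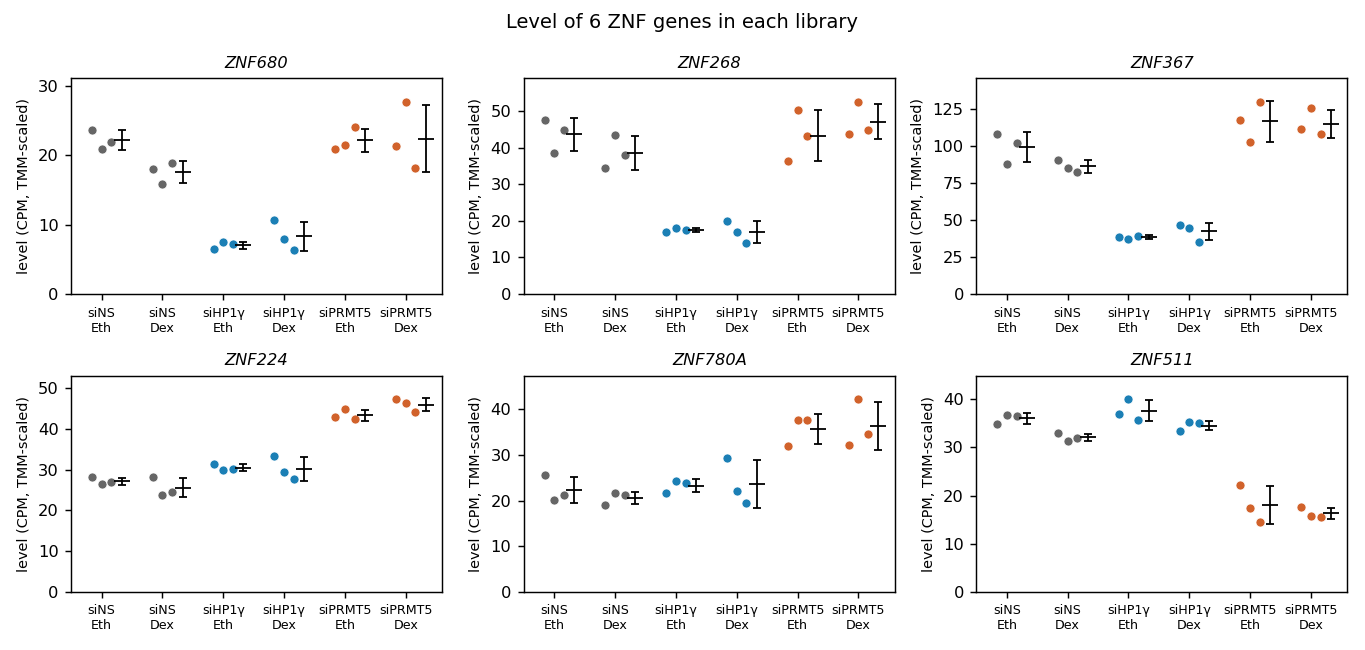
Level (CPM scaled by TMM, linear axes from 0) of 6 ZNF genes in each of the 18 libraries, where dots are libraries and bars are the mean ± SD (n = 3). ZNF680, ZNF268 and ZNF367 were lowest in the siHP1γ libraries, ZNF224 and ZNF780A were highest in siPRMT5 and ZNF511 was lowest in siPRMT5.

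**Figure D4:**
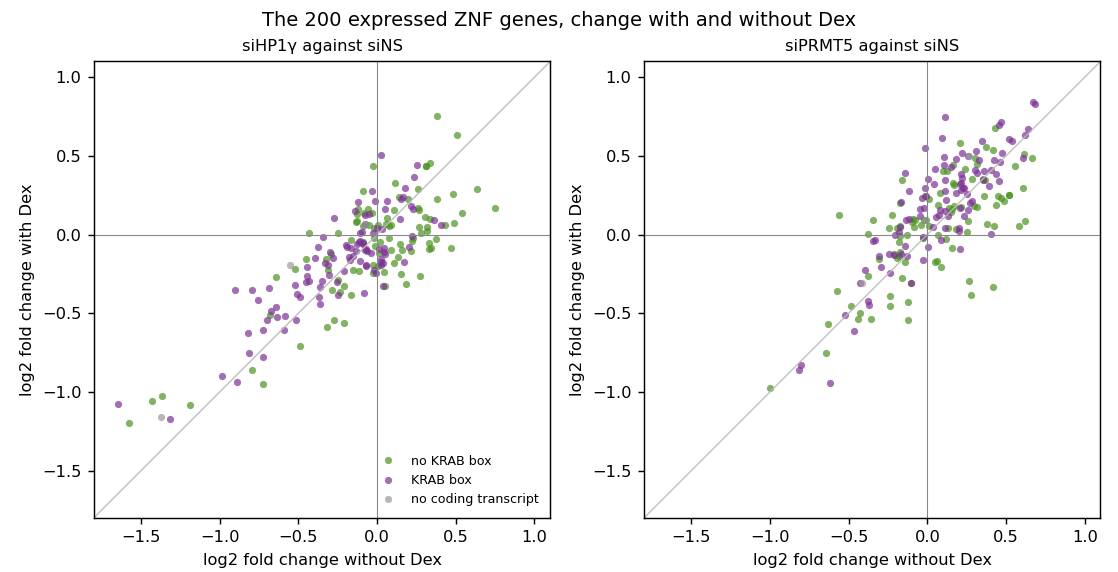
Log2 fold change of the 200 ZNF genes after siHP1γ (left) and siPRMT5 (right), without Dex on the horizontal axis and with Dex on the vertical axis, where each dot is a gene, coloured by KRAB box, and the grey diagonal marks equal change. On the left, 38 genes were called lower and 4 higher under both treatments, and on the right 37 were called higher and 18 lower.

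The 2 depletions were also set against each other directly. With Dex, 91 of the 200 genes were higher in siPRMT5 than in siHP1γ cells and 25 were lower, beside 49.9% of all genes tested, 24.4% higher and 25.5% lower. Without Dex, 81 were higher and 31 were lower, beside 48.4%, 23.4% higher and 25% lower. The median difference was 0.20 with Dex and 0.15 without, and for the genes with a KRAB box it was 0.29 and 0.28. Of these, 56 were higher and 6 were lower with Dex, and 53 were higher and 11 were lower without. The call was higher in siPRMT5 under both treatments for 71 of the 200 genes (35.5%), against 18% of all genes tested and 24.1% of the other genes at 15 CPM or more, and lower for 21 (10.5%), against 19.6% and 22.3%.

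The smallest p-values among the 200 genes belonged to ZNF252P with Dex and to ZNF367 without. ZNF252P was higher in siPRMT5 than in siHP1γ by 1.67 ± 0.10 with Dex and by 1.64 ± 0.11 without (edgeR adjusted p = 1.2e-12 and 4.1e-12). ZNF367 differed by 1.44 and 1.60 (edgeR adjusted p = 1e-11 and 2.4e-12). ZNF473, a subunit of the complex that processes histone pre-mRNA, had 38.9 to 45.1 CPM in siHP1γ Dex, 68.0 to 70.9 CPM in siNS Dex and 82.2 to 92.1 CPM in siPRMT5 Dex, so that the 3 groups did not overlap. It differed between the depletions by 1.06 with Dex and 0.84 without, and its exons overlap those of VRK3. ZNF189 and ZNF267, both with a KRAB box, differed by 1.16 and 1.14 with Dex and by 0.94 and 1.25 without, and ZNF697, with none, by 1.05 with Dex and 1.097 without.

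Where no library was shared, 26 of the 200 genes were lower after siHP1γ without Dex and higher after siPRMT5 with Dex, against 3.86% of all genes tested and 5.51% of the other genes at 15 CPM or more. These were 49.1% of the 53 lower genes and 36.6% of the 71 higher genes. In the converse pair of treatments 15 genes were lower after siHP1γ with Dex and higher after siPRMT5 without Dex, against 2.49% and 3.54%, which was 29.4% of the 51 and 27.8% of the 54. Genes lower in both numbered 7 (against 3.92% and 5.63%) and 9 (against 3.75% and 5.43%) in the same pairs of treatments. ZNF134, which was lower after both siRNAs, had 46.1 to 50.1 CPM in the siNS libraries, 24.8 to 29.5 CPM in siHP1γ and 27.4 to 32.3 CPM in siPRMT5, and the 2 depletions did not differ by the test (0.11 ± 0.086 with Dex and 0.16 ± 0.087 without, edgeR adjusted p = 0.29 and 0.14).

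Chromosome, number of fingers and level divided the genes further. The counts of these subsets stand beside 12.3% lower and 11.7% higher of all genes tested after siHP1γ with Dex, 15.2% and 16.5% without, 20.6% higher and 21.9% lower after siPRMT5 with Dex, and 20.6% and 21.6% without. Among the other genes at 15 CPM or more these shares were 16.8% and 13.2%, 20.8% and 19.8%, 25.4% and 26.4%, and 25.2% and 26.1%. On chromosome 19, 3 of the 60 genes with a KRAB box were higher and 16 were lower after siHP1γ with Dex, and 1 was higher and 17 were lower without Dex. On other chromosomes, 2 of 41 were higher and 14 were lower with Dex, and 2 were higher and 17 were lower without. The medians with Dex were −0.12 on chromosome 19 and −0.17 off it. The 16 genes on chromosome 19 without the box had 4 lower and none higher with Dex and 8 lower and none higher without Dex. After siPRMT5, genes with a KRAB box off chromosome 19 had 23 higher and 2 lower with Dex, beside 23 higher and 9 lower of 60 on it.

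The 77 genes on chromosome 19 fell into 14 stretches when neighbours more than 1000000 bases apart were split (hg38 coordinates of GENCODE 44), of which 6 held 5 genes or more and 8 held at most 4. The counts in single stretches are small and are given as a description, to be read beside the shares above. At 43912624 to 44500524, which holds ZNF45, ZNF155, ZNF224, ZNF234, ZNF226, ZNF227 and ZNF180, 5 of 7 genes were higher after siPRMT5 with Dex, 4 without Dex and none lower, with medians of 0.40 and 0.27. In the same stretch siHP1γ gave 1 higher gene with Dex and 1 lower without. In the largest stretch, 51571283 to 53580269, 9 of 22 genes were higher and 1 was lower after siPRMT5 with Dex, and 6 were higher and 2 lower without. The 6 higher were near the share of the other genes at 15 CPM or more, and the 2 lower were below theirs. After siHP1γ 2 were lower and 1 was higher with Dex, and 3 were lower and none higher without.

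Of the other 4 stretches with 5 genes or more, the one at 9140397 to 9675100 had none of 6 genes called after siHP1γ with Dex and 2 lower without, and after siPRMT5 1 higher and 3 lower with Dex and 3 lower without. At 19900913 to 21196053, 3 of 5 genes were lower after siHP1γ with Dex and 4 without, with medians of −0.35 and −0.56 and none higher, and after siPRMT5 1 was higher and 1 lower with Dex and 2 were lower without. At 36214602 to 37469275, 4 of 8 were lower after siHP1γ with Dex and 6 without, and none was higher. In that stretch siPRMT5 gave 4 higher genes and 1 lower with Dex (median 0.19), and 2 lower without. At 55605647 to 58431736, near the end of the long arm, 7 of 16 were lower after siHP1γ with Dex, and 6 were lower and 1 was higher without. After siPRMT5, 2 of these 16 were higher and 3 lower with Dex, and 3 were higher and 5 lower without. ZNF91, ZNF507, ZNF114 and ZNF473, each alone in its stretch, were lower after siHP1γ under both treatments, and ZNF302, also alone, was higher by 0.51 with Dex.

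By number of fingers, the 109 genes with 10 or more had 30 lower and 5 higher after siHP1γ with Dex and 35 lower and 6 higher without Dex. The 37 with 0 to 4 fingers had 7 lower and 5 higher, near the shares of the other genes at 15 CPM or more, and 5 lower and 8 higher. After siPRMT5 with Dex the first class had 46 higher and 11 lower, and the second had 4 higher and 10 lower. Fingers and KRAB box went together, since 78 of the 109 genes encode a KRAB box. The 31 genes with 10 or more fingers and no KRAB box had 9 lower and 2 higher after siHP1γ with Dex, 9 lower and 5 higher without Dex, and 8 higher and 5 lower after siPRMT5 with Dex.

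Among the 99 members with 15 to 30 CPM, 29 were lower and 6 higher after siHP1γ with Dex (median −0.15), and among the 101 members with 30 CPM or more, 22 were lower and 11 higher (median −0.06). The 61 genes with a KRAB box at 15 to 30 CPM had 20 lower and 1 higher (median −0.17), and the 40 at 30 CPM or more had 10 lower and 4 higher (median −0.12). After siHP1γ without Dex, 20 of the 101 members with 30 CPM or more were lower and at least 17 higher (median −0.02). The 20 lower were near the share of the other genes at 15 CPM or more. The 239 ZNF genes tested below 15 CPM, which are no members, had 44 lower and 9 higher after siHP1γ with Dex (median −0.13) and 63 higher and 10 lower after siPRMT5 with Dex (median 0.18). Under both treatments 26 of the 239 (10.9%) were higher after siPRMT5, against 12.9% of all genes tested. In the same way 6 (2.51%) were lower, against 15.2%. Of the 48 genes with a KRAB box whose exons overlap no other gene, 16 were lower and 2 higher after siHP1γ with Dex, and 25 were higher and 5 lower after siPRMT5 with Dex.

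Related families were set beside them. Of 18 ZKSCAN, ZSCAN and ZFP genes with at least 15 CPM, 6 were lower and 1 was higher after siHP1γ with Dex and 8 were lower and 1 was higher without Dex. Of 24 ZBTB genes, which carry a BTB domain in place of a KRAB box, 3 were lower and 3 higher with Dex, and 1 was lower and 6 were higher without. Of all genes tested, 12.3% were lower and 11.7% higher with Dex, close to the shares of the ZBTB genes (12.5% each), and 15.2% and 16.5% without.

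The role lists were made by hand and are short, so that their counts describe these genes only. Of 8 genes of chromatin complexes, 5 rose and 1 fell after siPRMT5 with Dex (20.6% and 21.9% of all genes tested), and 7 rose and none fell without Dex (20.6% and 21.6%). ZNF644, a partner of the H3K9 methyltransferases G9a and GLP, changed by 0.45 with Dex and 0.31 without. ZNF687 and ZNF592, which act with ZMYND8, changed by 0.25 and 0.22 with Dex (the second did not pass) and by 0.52 and 0.49 without. ZNF462 changed by 0.30 and 0.61, and ZNF335, a subunit of an H3K4 methyltransferase complex, by 0.42 without Dex (0.05 with Dex, not called). ZNF274, which recruits SETDB1 to the ends of zinc finger genes, had 80.5 to 85.2 CPM in siNS Dex and 96.4 to 107 CPM in siPRMT5 Dex, and rose by 0.30 with Dex and 0.23 without. Of the 5 calls with Dex, that of ZNF687 was lost in 7 settings, that of ZNF462, whose libraries overlapped (exact permutation p = 0.4, two-sided), in 4 and that of ZNF451 in 3. Of the 7 without Dex, those of ZNF644 and ZNF532 were lost in 3 settings each and that of ZNF274 in 2. After siHP1γ without Dex, 4 of the 8 were higher and none lower (16.5% and 15.2% of all genes tested), ZNF462 the most (0.75 ± 0.11, edgeR adjusted p = 1.3e-05), and with Dex ZNF532 was lower (−0.31). These calls were lost in 5 settings for ZNF274, in 2 for ZNF592 and in 4 for ZNF532.

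Of 10 genes that act on RNA, ribosomes or mitosis, 1 rose and 1 fell after siPRMT5 with Dex and 2 rose and 1 fell without, which is 2 and 3 called beside 42.4% and 42.1% of all genes tested. ZNF598, the ubiquitin ligase of collided ribosomes, fell by 0.46 with Dex and 0.49 without. ZNF330, a nucleolar protein, rose by 0.24 with Dex (lost in 1 setting). Without Dex ZNF346, which binds double-stranded RNA, rose by 0.47, and ZNF830 also rose, with a call lost in 2 settings. ZNF207, a kinetochore protein, had 161 to 189 CPM over all siNS libraries and 165 to 178 CPM over all siPRMT5 libraries, and did not pass in any depletion. After siHP1γ, 1 of the 10 rose and 1 fell with Dex, and 2 rose and none fell without, beside 24.0% and 31.8% called of all genes tested. With Dex these were ZNF706 (0.28, lost in 3 settings) and ZNF346 (−0.55), and without Dex ZNF830 (0.33, lost in 3 settings) and ZNF598 (0.27, lost in 13 settings).

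Of 7 sequence-specific activators and growth genes, 3 rose and none fell after siPRMT5 with Dex, and 2 rose and 1 fell without, so that 3 of 7 were called each time, near the 42.4% and 42.1% of all genes tested. After siHP1γ, 1 rose and none fell with Dex, and 2 rose and 1 fell without, beside 24.0% and 31.8% called of all genes tested. ZNF217, a breast cancer oncogene on chromosome 20, rose by 0.68 after siPRMT5 with Dex and by 0.43 without (edgeR adjusted p = 1.7e-07 and 0.00012). ZNF281 (0.33) and ZNF24 (0.22) also rose after siPRMT5 with Dex, the second with a call lost in 4 settings. ZNF76, a paralog of ZNF143, rose without Dex after both siPRMT5 (0.45) and siHP1γ (0.43), and ZNF146 fell without Dex after siPRMT5 (−0.38). Its value after siHP1γ without Dex was −0.25, a call lost in 10 settings, DESeq2 and the replicate block among them. ZNF143 and ZNF148 passed in no depletion. Of 4 KRAB proteins that bind transposable elements, ZNF91, which silences SVA elements, changed by −0.70 without Dex and −0.55 with Dex after siHP1γ, and ZNF765 by −0.51 and −0.38. With Dex the ZNF91 libraries overlapped, and each of the 2 calls was lost in 4 settings, among them without siHP1γ Dex replicate 3 (−0.37 and −0.30) and without siNS Dex replicate 2 or 3. ZNF93 (0.03 and 0.03) and ZNF649 (0.00 and 0.04), which bind LINE-1, did not pass.

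The machinery that KRAB proteins use was read from a list of 28 corepressor genes, of which 26 were tested. After siHP1γ, 6 of 26 were lower and none higher with Dex, and 7 were lower and 4 higher without, CBX3 itself included, beside 12.3% lower and 11.7% higher, and 15.2% and 16.5%, of all genes tested. TRIM28 changed by −0.43 and −0.23, TASOR, a subunit of the HUSH complex, by −0.70 and −0.72, UHRF1 by −0.84 and −0.81 and TRIM24 by −0.42 and −0.59. The 4 that were higher without Dex were CHD3 (0.63), SETDB1 (0.44), MORC2 (0.35) and EHMT1 (0.31). After siPRMT5, 8 were higher and 4 lower with Dex and 6 were higher and 4 lower without, which is 12 and 10 of 26 called, near the 42.4% and 42.1% of all genes tested. CBX1, which encodes HP1β, changed by −0.98 and −0.95 and WIZ, a partner of G9a, by −0.99 and −1.17, while ATRX changed by 0.60 and 0.73 and MORC3 by 0.49 and 0.50. The part of these genes in the changes of the ZNF genes was not tested.

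The last question was the Dex response, called at an adjusted p under 0.01 with 1.5-fold change or more in either direction. In siNS cells 1 of the 200 genes was called, against 2.71% of all genes tested, and it rose (1.65% of all genes tested rose and 1.06% fell). In siHP1γ cells 1 was called, against 1.67%, and it rose (1.01% rose and 0.660% fell). In siPRMT5 cells 6 were called, against 5.44%, of which 5 rose (2.69%) and 1 fell (2.75%). The 5 were ZNF485, ZNF239 (0.68), ZNF354A (0.64), ZNF33B (0.60) and ZNF217 (0.59), and ZNF532 fell (−0.61). At an adjusted p under 0.05 with no limit on the change, 9 genes rose and 7 fell in siNS cells, against 4.88% and 4.28% (9.16% in all). In siHP1γ cells 3 rose and 2 fell, against 2.44% and 3.10% (5.55% in all), and in siPRMT5 cells 14 rose and 10 fell, against 7.52% and 8.48% (16% in all).

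ZNF485, a KRAB gene on chromosome 10, was the gene called in siNS cells. It had 10.9, 13.5 and 15 CPM with Eth and 19.2, 20.2 and 23.5 CPM with Dex in siNS cells, 14.7 to 16.2 CPM and 26.3 to 30 CPM in siHP1γ cells, and 12.6 to 16.3 CPM and 32.9 to 36.1 CPM in siPRMT5 cells. Every Dex library was above every Eth library of the same siRNA. The response was 0.67 ± 0.12 in siNS, 0.87 ± 0.11 in siHP1γ and 1.31 ± 0.11 in siPRMT5 (edgeR adjusted p = 0.00032, 5.8e-06 and 2e-09). The call in siNS was lost without siNS Dex replicate 2 or siNS Eth replicate 3. The difference between siPRMT5 and siNS was 0.64 ± 0.17 (edgeR adjusted p = 0.031).

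Among the genes at an adjusted p under 0.05 in siNS cells, ZNF777 and ZNF217 had the next largest increases (0.36 and 0.34, the first lost when any 1 of 5 of the 6 siNS libraries was left out), and ZNF804A, ZNF438 and ZNF655 had the largest decreases (−0.47, −0.46 and −0.43). ZNF438 had 97.3 to 106 CPM with Eth and 72.5 to 76.8 CPM with Dex in siNS cells, with no overlap.

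The Dex response differed from that in siNS cells for 6 of the 200 genes in siPRMT5 cells, against 3.80% of all genes tested, with 3 responses higher (1.58%) and 3 lower (2.23%), and for 0 in siHP1γ cells, against 0.399%. In siHP1γ cells edgeR gave 37 of the 200 genes an unadjusted p under 0.05 (18.5%), near the 17.2% of all genes tested. DESeq2 gave an adjusted p to 122 of the 200 and called 3 (2.46%), against 4.09% of the 7290 genes to which it gave one. With 1 library left out, 2 were called in siHP1γ cells without siPRMT5 Dex replicate 1, and 1 without siNS Eth replicate 2 or siHP1γ Eth replicate 2. The count of 6 was 11 without siHP1γ Dex replicate 1 or without siNS Eth replicate 2. ZNF618, a partner of UHRF2, had 31.3 to 35.9 CPM with Eth and 39.2 to 43.4 CPM with Dex in siNS cells, and 42.2 to 49.0 CPM with Eth and 30.9 to 37.0 CPM with Dex in siPRMT5 cells. It rose with Dex in siNS cells (0.33) and fell in siPRMT5 cells (−0.42), and the difference was −0.75 ± 0.13 (edgeR adjusted p = 0.0011). ZNF121, with no KRAB box, had overlapping Eth and Dex libraries in siNS cells, and in siPRMT5 cells rose from 121 to 125 CPM to 155 to 164 CPM. ZNF532 fell with Dex in siPRMT5 cells from 50.2 to 58.0 CPM to 30.6 to 38.8 CPM, and in siNS cells it had 41.8 to 45.8 CPM and 42.1 to 49.6 CPM. ZNF629 and ZNF639 differed by −0.54 and 0.44, the first lost without siNS Eth replicate 3.

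**Figure D5:**
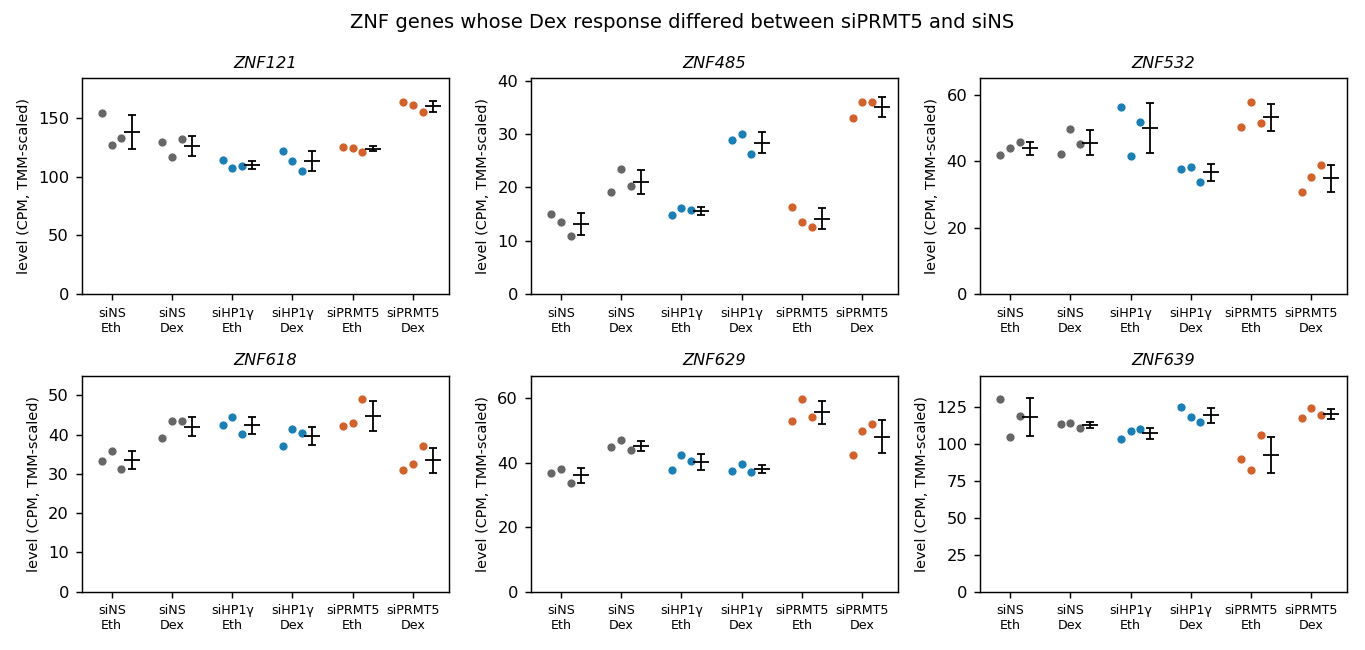
Level (CPM scaled by TMM, linear axes from 0) of the 6 ZNF genes whose Dex response differed between siPRMT5 and siNS cells, in each of the 18 libraries, where dots are libraries and bars are the mean ± SD (n = 3). In siPRMT5 cells ZNF121, ZNF485 and ZNF639 lie higher with Dex than with Eth, and ZNF532, ZNF618 and ZNF629 lie lower, in each case without overlap.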

How the data were processed

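RNA was measured by RNA-seq in 18 libraries of MDA-MB-231 cells. The authors mapped reads to hg38 with Bowtie2 2.4.2, which does not split reads over introns, and deposited raw read counts per gene symbol from HTSeq 0.9.1, according to their methods and processing notes (which also name DESeq2 2.11.40.7). The annotation and the strand setting are not given in the sources used here. A deposited table of the authors' own fold changes and adjusted p-values was not used.

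Counts were normalised by TMM and fitted in R 4.3.3 with edgeR 4.0.16 (quasi-likelihood test, 1 mean per group, 12 residual df) over the 15298 genes left by its filter on low counts, and p-values were adjusted over all of these by the Benjamini-Hochberg method. The threshold was 0.05, and for the Dex response 0.01 with 1.5-fold. Errors of log2 fold changes are SE. With 3 against 3 libraries an exact two-sided permutation test cannot give a p below 0.1, so for single genes it is printed only for ZNF462. The code was tested on simulated data. DESeq2 1.42.0, other scalings, filters and level limits, a replicate block and omission of each library were tried.

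Gene positions, the KRAB box and C2H2 fingers were read from GENCODE 44 (translated MANE Select transcripts for 195 of the 197 coding genes), and promoters from RefSeq. The genes named were the 8 with the largest mean change in each direction after each siRNA among those called under both treatments without overlap, the genes called in or nearest to the call in the Dex response of siNS cells, the 4 smallest p-values of each other comparison, and 4 role lists. ZNF609, ZNF639, the genes of the Dex response in siPRMT5 cells and the stretches of chromosome 19 were named after their values were seen. The members and lists were chosen with earlier results of these data known.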

Additional observations from a re-analysis of the deposited data

Results flagged for a closer look

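The Dex response of 6 genes differed between siPRMT5 and siNS cells by the edgeR test of the difference itself, given here on the log2 scale as the response in siPRMT5 minus that in siNS. It was higher for ZNF485 (0.6356), ZNF121 (0.5065) and ZNF639 (0.4422). It was lower for ZNF618 (−0.7501), ZNF532 (−0.6628) and ZNF629 (−0.5365).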

How the results depend on the processing

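No result changed direction under the alternatives run. With a limit of 30 CPM, 11 genes were higher and 22 lower after siHP1γ with Dex. At this limit without Dex, 20 were lower and at least 17 higher (median −0.02192). After siPRMT5, 38 were higher and 17 lower with Dex, and 34 were higher and 17 lower without. In siNS, siHP1γ and siPRMT5 cells 0, 0 and 2 responded to Dex. The depletions differed for 56 with Dex and 53 without. With a limit of 10 CPM, 83 were lower after siHP1γ without Dex (median −0.09173), and 3 and 2 responded to Dex in siNS and siHP1γ cells. These limits change the number of genes, so the counts cannot be compared with those at 15 CPM. Of all genes tested, 12.3% were lower and 11.7% higher after siHP1γ with Dex, and 15.2% and 16.5% without. After siPRMT5 20.6% were higher and 21.9% lower with Dex, and 20.6% and 21.6% without. The depletions differed for 49.9% with Dex and 48.4% without. To Dex 2.71%, 1.67% and 5.44% responded in siNS, siHP1γ and siPRMT5 cells. With library sizes alone the siHP1γ medians were −0.01484 with Dex and −0.02158 without, while the median of all genes tested moved to 0.0864 and 0.0693. With only the libraries compared the median after siHP1γ without Dex was −0.09277. Without the fold limit 16, 5 and 24 genes responded to Dex in siNS, siHP1γ and siPRMT5 cells. The Dex response differed between siHP1γ and siNS cells for 3 genes by DESeq2, 4 with no filter, 2 with only the libraries compared and 1 with the replicate block. It differed between siPRMT5 and siNS cells for 12 with no filter. The causes were not tested.

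Leaving out each library in turn gave, with Dex, 9 to 19 genes higher and 18 to 34 genes with a KRAB box lower after siHP1γ, and 30 to 50 genes with a KRAB box higher after siPRMT5. Without Dex it gave 13 to 26 genes higher after siHP1γ (median −0.09556 to −0.06309) and a median of 0.06176 to 0.113 after siPRMT5. Calls of the Dex response in siNS cells ranged from 0 to 1, and of its difference in siHP1γ from 0 to 2 and in siPRMT5 from 4 to 11. The replicate numbers did not pair the libraries: same-numbered libraries correlated above 0.1 in 17 of 45 pairs and differently numbered ones in 29 of 90. All 3 same-numbered pairs were above 0.1 for siNS Eth with siHP1γ Dex (0.302 to 0.722) and for siNS Dex with siPRMT5 Eth (0.121 to 0.387). These groups meet in the differences of Dex responses and in counts of genes called in 2 comparisons that share no library. For no groups compared directly were all 3 pairs above 0.1. The replicate block moved no other count of calls by more than 1.5-fold. Depth limits small changes, and reads from overlapping or near-identical genes could not be separated. Exons of 105 of the 200 genes overlap those of another gene, and exons of 57 overlap those of a coding gene. Among single genes, the calls most often lost were those of ZNF598 (in 13 settings), ZNF146 (10) and ZNF281 (9) after siHP1γ without Dex and of ZNF687 (7) after siPRMT5 with Dex.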
